A study of Mus musculus with 64 samples.

Results

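Levels of 10 genes for milk proteins and for the membrane of the milk fat globule were followed in 8 primary mammary tumors of 4 PyMT mice. The genes were chosen by name from the deposited gene table. They were the caseins Csn1s1, Csn2, Csn1s2a, Csn1s2b and Csn3, the whey proteins Wap and Lalba, the mucin-like milk glycoprotein Glycam1, and the fat globule genes Btn1a1 and Xdh. All 10 were among the 55385 genes of the lane files, and all 10 were among the 22187 genes that passed the filter on low counts. In all 4 female mice the middle T antigen of polyomavirus (PyMT, PyVT) drove the tumors. Tumors 3 and 6 of mouse G164 (Abi1 fl/wt with Cre) stand for the heterozygous KO and tumors 6 and 8 of mouse G144 (Abi1 fl/wt without Cre) for its control. Tumors 1 and 6 of mouse G174 (Abi1 fl/fl with Cre) stand for the homozygous KO and tumors 6 and 9 of mouse G184 (Abi1 fl/fl without Cre) for its control. Cre was driven by MMTV, a promoter active in mammary epithelium, and came from a line of mixed strain, whereas the PyMT and floxed lines were C57BL6. G164 and G184 were the older mice, and G174 and G144 the younger ones. Each genotype was 1 mouse, so genotype, mouse and age cannot be told apart, and the p-values speak only to the variation among tumors within mice. With 2 tumors against 2, a two-sided exact permutation test cannot give a p below 0.333, so the tests given are those of a model fitted across all genes. Whether the mice had been pregnant or had lactated is not given in the sources used here.

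Milk proteins are made by the secretory alveolar cells of the mammary gland. Prolactin binds its receptor on these cells, the kinase JAK2 phosphorylates STAT5, and STAT5 together with glucocorticoid receptor, ELF5 and nuclear factor I proteins turns on casein and whey protein genes. Caseins pack with calcium phosphate into micelles, whey proteins stay in solution, and fat leaves the cell as droplets wrapped in membrane that carries butyrophilin and xanthine oxidoreductase. Tumors of the PyMT model arise from this epithelium, and luminal keratins are part of their usual profile.

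Abi1 levels followed the labels. Abi1 was at 63.1 and 66.7 CPM (counts relative to the TMM-scaled library size) in tumors of G164, against 111 and 130.1 CPM in tumors of G144. It was at 8.93 and 6.47 CPM in tumors of G174, against 114 and 122 CPM in tumors of G184. The gene total per tumor ran from 50346075 to 69264893 counts. All 8 luminal markers were expressed in every tumor, and their summed level was 4002 to 4079 CPM in G164, 3875 to 4358 CPM in G144, 3917 to 4087 CPM in G174 and 3969 to 4691 CPM in G184. Single luminal markers varied within that sum. Kit ran from 264 to 962 CPM over the tumors, Krt19 from 103 to 476 CPM and Pgr from 15.3 to 62.6 CPM. Krt8 ran from 615 to 934 CPM and Krt18 from 689.8 to 937 CPM. The sums of some other tissues varied more than the luminal sum. The 5 skeletal muscle markers summed to 258 CPM in tumor 3 of G164 and 199 CPM in tumor 8 of G144, against 9.54 to 13.4 CPM in the other 6 tumors. In tissue RNA, fewer cells of a type and less RNA per cell cannot be told apart.

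The 5 casein genes lie together on chromosome 5, from position 87666208 to 87932665 (GRCm38, GENCODE M21), a span of 266 kb. Csn1s1, Csn1s2a, Csn1s2b and Csn3 are read from the plus strand and Csn2 from the minus strand. Wap lies on chromosome 11 (6635482 to 6638637), Lalba and Glycam1 on chromosome 15 (98480400 to 98482721 and 103562759 to 103565081), Btn1a1 on chromosome 13 (23456992 to 23465901) and Xdh on chromosome 17 (73883895 to 73950196). Promoter windows of 300 bases, from 250 before to 50 after the RefSeq start (GRCm38.p6), were at hand for 6 of the 10 genes. They were not at hand for Csn1s2b, Csn3, Btn1a1 and Xdh. Each window was searched on both strands for the STAT5 binding word TTCNNNGAA, which reads the same on either strand. The word was present in 4 of the 6 windows, and in 8.3% of all 32851 windows of that length. Its first base lay 100 bases before the start in Csn1s1 (TTCTTAGAA), 93 before it in Csn2 (TTCTTGGAA) and 145 before it in Glycam1 (TTCCCAGAA). In Csn1s2a the word TTCTTAGAA began at base 21 after the RefSeq start, which is 97 bases before the GENCODE start of the gene. The 2 annotations also differ for Csn2, whose word begins 112 bases after its GENCODE start. Wap and Lalba held no such word in this window. The short word TTGGC bound by nuclear factor I, on either strand and overlapping no STAT5 word, was present in the windows of Csn2, Wap, Lalba and Glycam1, and in 46.7% of all windows. The word TATAAA was in 0 of the 6 windows and in 13.6% of all windows. A match describes the letters only and is not evidence of binding. Whether the STAT5 word goes with a change between mice was not tested. Csn1s1, which has the word, had log2 fold changes of 0.49 ± 0.89 and 0.68 ± 0.89 (SE) in the heterozygous and homozygous comparisons. Wap, which lacks it, had -0.87 ± 0.89 and 2.06 ± 0.92 (SE). The windows of Csn2, Csn1s2a and Glycam1, the 3 genes with the highest fold changes in G164, and of Lalba, the gene that was lower in G174, are shown 5′ to 3′ with the STAT5 word in capitals.
Csn2 (chr5:87699376-87699675, minus strand): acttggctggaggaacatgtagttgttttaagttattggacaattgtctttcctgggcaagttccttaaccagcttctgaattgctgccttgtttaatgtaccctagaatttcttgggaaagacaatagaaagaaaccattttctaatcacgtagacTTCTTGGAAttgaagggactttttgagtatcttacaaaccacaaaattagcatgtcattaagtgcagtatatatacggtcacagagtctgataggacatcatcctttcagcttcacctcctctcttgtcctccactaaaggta
Csn1s2a (chr5:87774200-87774499, plus strand): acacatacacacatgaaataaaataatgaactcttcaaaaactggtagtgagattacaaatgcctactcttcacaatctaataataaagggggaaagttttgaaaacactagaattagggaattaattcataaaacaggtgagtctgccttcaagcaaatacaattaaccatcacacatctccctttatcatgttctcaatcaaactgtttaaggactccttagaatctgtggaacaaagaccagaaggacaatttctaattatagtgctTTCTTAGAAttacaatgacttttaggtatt
Glycam1 (chr15:103565032-103565331, minus strand): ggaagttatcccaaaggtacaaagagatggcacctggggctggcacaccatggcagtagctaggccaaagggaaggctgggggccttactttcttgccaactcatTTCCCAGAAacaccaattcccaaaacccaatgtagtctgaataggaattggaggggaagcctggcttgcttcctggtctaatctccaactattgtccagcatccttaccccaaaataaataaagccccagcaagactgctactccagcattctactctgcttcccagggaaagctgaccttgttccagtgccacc
Lalba (chr15:98482634-98482933, minus strand): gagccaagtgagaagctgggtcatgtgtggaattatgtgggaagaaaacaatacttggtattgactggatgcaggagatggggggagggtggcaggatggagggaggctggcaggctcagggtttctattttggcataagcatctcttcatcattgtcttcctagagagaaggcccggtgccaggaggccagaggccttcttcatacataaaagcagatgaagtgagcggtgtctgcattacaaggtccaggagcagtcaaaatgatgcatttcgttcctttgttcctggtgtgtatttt

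The members did not move as a block in either KO mouse. Against G144, 0 of the 10 genes passed an adjusted p of 0.05 in G164 (edgeR quasi-likelihood test with Benjamini-Hochberg adjustment), where 2.72% of all genes were called higher and 1.29% lower. At an unadjusted p under 0.05 there were 4 (Csn2, Csn1s2a, Glycam1 and Btn1a1, all with positive fold changes), beside 12.8% of all genes in that direction. DESeq2 called the same 4 and 6.23% of all genes higher. Against G184, 2 of the 10 genes passed in G174: Csn1s2a was higher, as were 5.44% of all genes, and Lalba was lower, as were 7.7% of all genes. The homozygous change differed from the heterozygous change for 1 gene, Lalba, which was lower by this contrast, with 12% of all genes called higher and 13.1% lower. The same contrast sets the younger mice, G174 and G144, against the older mice, G164 and G184. A difference of the changes therefore cannot be told apart from a difference by age, here and below. In the comparison of the controls, G184 against G144, 0 of 10 genes passed, with 6.17% of all genes called higher and 6.4% lower. In that comparison 0 of the 10 had an unadjusted p under 0.05, beside 31.6% of all genes, and DESeq2 called 0 of them, beside 20.2% of all genes. The median log2 fold change of the 10 genes was 0.37 in the heterozygous comparison, 0.6 in the homozygous one and 0.04 between the controls, beside medians of 0.02, 0.00 and 0.01 over all genes tested.

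**Figure D1:**
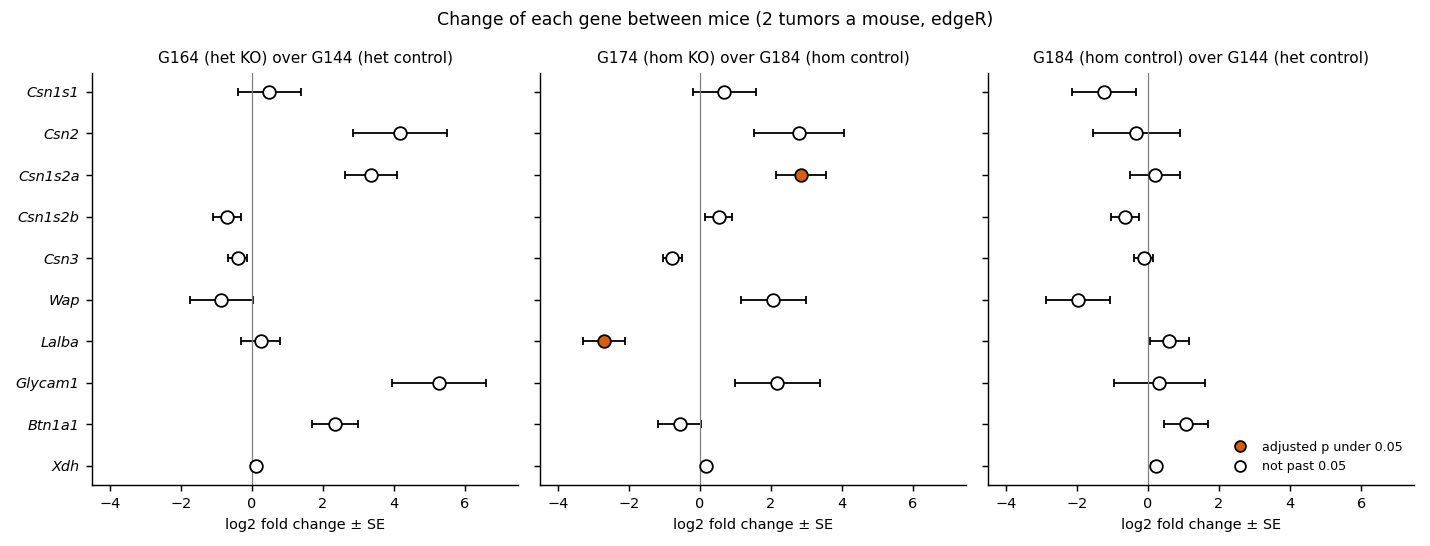
Log2 fold change with its standard error (x axis) of the 10 genes in 3 comparisons, each from 2 tumors of 1 mouse against 2 of another, edgeR over all 8 tumors. Orange marks the genes past an adjusted p of 0.05, which were Csn1s2a (2.84) and Lalba (-2.70) in G174 over G184; the heterozygous estimates of Csn2, Csn1s2a and Glycam1 lay above 3 with wide errors.

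Set on a common scale per length, Csn3 stood far above the rest. In CPM per kb of the longest coding transcript, Csn3 averaged 2517 in G164, 3313 in G144, 1774 in G174 and 3056 in G184, and it ranked first in all 8 tumors. The members together took 0.475% and 0.596% of gene counts in G164 and 0.577% and 0.63% in G144. They took 0.312% and 0.424% in G174, against 0.683% and 0.488% in G184. Csn3 alone made up 70.8% to 86.8% of the members' counts in a tumor. Lalba averaged 237 CPM per kb in G164, 199 in G144, 46.3 in G174 and 300.4 in G184. It ranked second in 5 tumors and Xdh in the other 3, which were tumor 6 of G144 and both tumors of G174. Csn1s2b was at the bottom, with 0.32 to 0.527 CPM per kb in the mean of each mouse. It ranked last in 6 tumors, below all but Glycam1 in tumor 6 of G144 and all but Csn2 in tumor 9 of G184. Dividing by the union of all annotated exons, which include retained introns, also left Csn3 first in all 8 tumors.

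**Figure D2:**
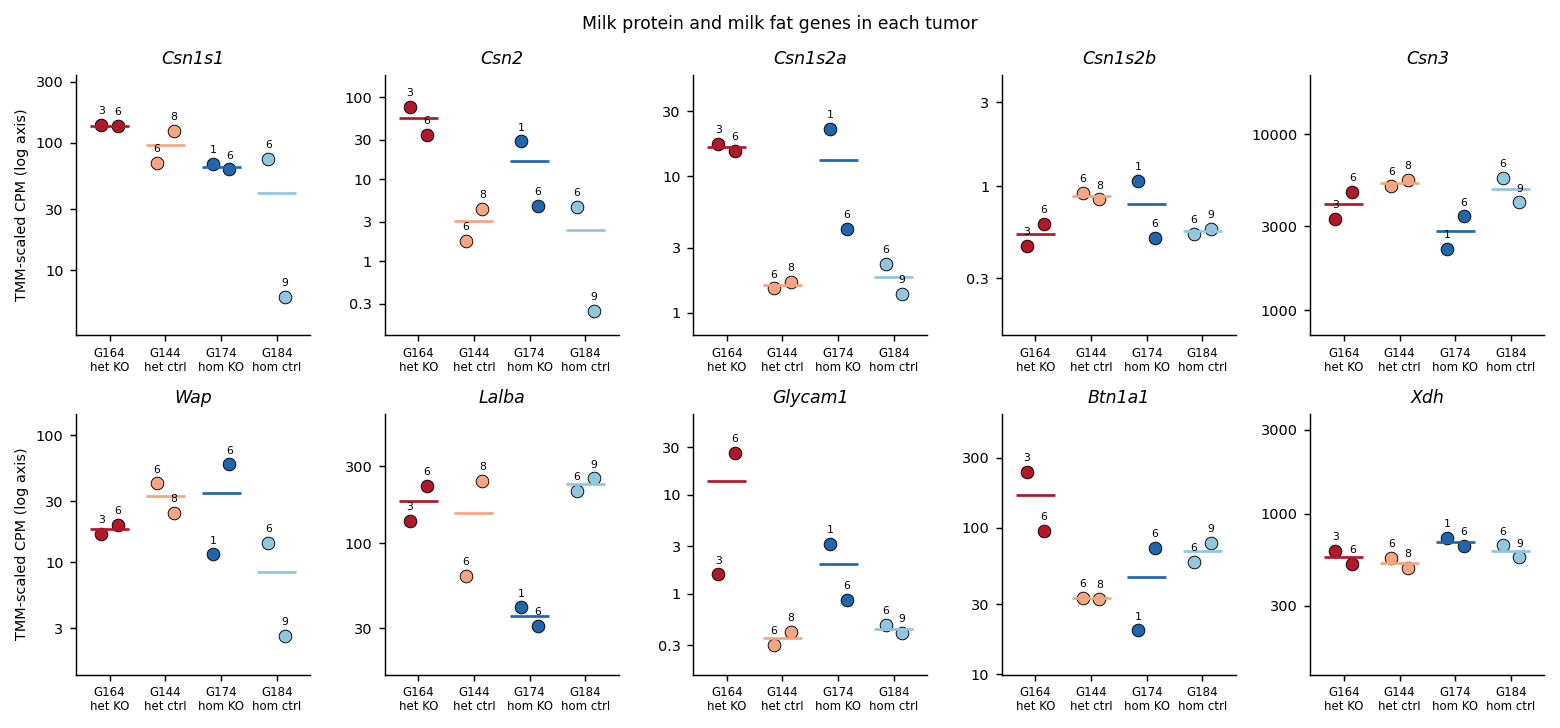
TMM-scaled CPM (log axis) of the 10 genes in each tumor, with the tumor number above each point and a bar at the mean of each mouse (n = 2). Xdh lay between 494 and 732 CPM in all 8 tumors, whereas Csn2 ran from 0.249 CPM in tumor 9 of G184 to 75.4 CPM in tumor 3 of G164.

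The caseins varied to unlike degrees. From the lowest to the highest tumor, Csn2 ranged 303-fold, Csn1s1 22.2-fold and Csn1s2a 16.2-fold, against 2.37-fold for Csn1s2b and 2.52-fold for Csn3. The range of Csn1s1 rested on its low level in tumor 9 of G184. Csn2, which encodes beta-casein, was at 75.4 and 34.7 CPM in tumors 3 and 6 of G164, against 1.78 and 4.36 CPM in tumors 6 and 8 of G144. Both tumors of G164 were above both of G144, and the log2 fold change was 4.17 ± 1.32 (SE, n = 2 tumors each, edgeR adjusted p = 0.115). DESeq2 gave the same estimate an adjusted p of 0.0336, and edgeR on only these 4 tumors gave 0.0324. In the homozygous pair Csn2 was at 28.8 and 4.76 CPM in tumors 1 and 6 of G174, against 4.59 and 0.249 CPM in tumors 6 and 9 of G184. The lower tumor of G174 was level with the higher tumor of G184, and the log2 fold change of 2.78 ± 1.26 (SE, edgeR adjusted p = 0.18) was 6.09 without tumor 6 of G184 and 0.97 without tumor 1 of G174. Only 16 counts of Csn2 were read in tumor 9 of G184, where its level in CPM per kb was the lowest of the 10 genes.

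Csn1s2a, an alpha-S2-type casein, was the member that was higher in both KO mice than in their controls by the largest margin relative to its error. It was at 17.3 and 15.3 CPM in tumors 3 and 6 of G164, against 1.51 and 1.69 CPM in tumors 6 and 8 of G144. The tumors of a mouse lay close together here, and the log2 fold change was 3.35 ± 0.73 (SE, edgeR adjusted p = 0.0535). It was at 22.2 and 4.11 CPM in tumors 1 and 6 of G174, against 2.29 and 1.37 CPM in tumors 6 and 9 of G184. Csn1s2a thus rose in G174, by 2.84 ± 0.71 on the log2 scale (SE, edgeR adjusted p = 0.0441), although tumor 6 of G174 had a level 0.186 times that of tumor 1. That call held with DESeq2 and was lost in the fit of only these 4 tumors (edgeR adjusted p = 0.119). It was also lost without any 1 of the 7 tumors other than tumor 6 of G174, where fewer of all genes passed too. Without tumor 1 of G174 the log2 fold change was 1.17, and without tumor 6 of G174 it was 3.62. The heterozygous value passed in DESeq2 (adjusted p = 3.56e-06) and when either tumor of G174 was left out. It did not pass without any 1 of its own 4 tumors (log2 fold change 3.25 to 3.44), where fewer of all genes passed too. The changes of the pairs differed by -0.51 ± 0.96 (SE, edgeR adjusted p = 0.722), and by -2.18 (0.0219) without tumor 1 of G174.

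Csn1s1, the alpha-S1 casein, had similar levels in most tumors. It was at 137 and 135 CPM in tumors 3 and 6 of G164, against 69.3 and 124 CPM in tumors 6 and 8 of G144, with a log2 fold change of 0.49 ± 0.89 (SE, edgeR adjusted p = 0.767). It was at 68.1 and 61.6 CPM in tumors 1 and 6 of G174, against 74.8 and 6.15 CPM in tumors 6 and 9 of G184 (0.68 ± 0.89 (SE), edgeR adjusted p = 0.637). Tumor 9 of G184 stood apart from the other 7. Leaving out tumor 9 turned the homozygous estimate to -0.20, and leaving out tumor 6 of G184 raised it to 3.43 (edgeR adjusted p = 0.0133). The difference between pairs was then 2.95 (edgeR adjusted p = 0.0102), against 0.19 with all tumors. The control comparison was likewise -3.98 without tumor 6 of G184 (edgeR adjusted p = 0.00995), against -1.25 with all tumors.

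Csn1s2b, a second alpha-S2-type casein, was close to the limit of detection. It was at 0.457 and 0.61 CPM in tumors of G164, against 0.914 and 0.843 CPM in tumors of G144, which is 24 to 60 counts per tumor. In G174 it was at 1.08 and 0.512 CPM, against 0.536 and 0.575 CPM in G184. Its largest estimate was the difference of the homozygous and heterozygous changes, 1.23 ± 0.55 (SE, edgeR adjusted p = 0.141). On unstranded counts that value was 1.92 with an adjusted p of 0.0469, without tumor 6 of G174 it was 1.71 (0.0386), and without tumor 1 of G174 it was 0.60 (0.369). Of the unstranded counts of Csn1s2b, 505 in all tumors, 349 were on the strand of the gene.

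Csn3 encodes kappa-casein, which coats the casein micelle and keeps it in solution. It was at 3311 and 4724 CPM in tumors 3 and 6 of G164, against 5086 and 5488 CPM in tumors 6 and 8 of G144. It was at 2244 and 3419 CPM in tumors 1 and 6 of G174, against 5646 and 4108 CPM in tumors 6 and 9 of G184. In both pairs the KO tumors lay below the control tumors without overlap. The log2 fold change was -0.40 ± 0.27 (SE, edgeR adjusted p = 0.402) in the heterozygous and -0.78 ± 0.27 (SE, edgeR adjusted p = 0.0992) in the homozygous comparison. DESeq2 gave the homozygous value an adjusted p of 0.0195. An antisense gene that overlaps Csn3, 1700066N21Rik, had 5 counts in all 8 tumors.

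Between Csn1s1 and Csn3 the annotation places 8 other genes, 4 of which passed the filter. Their totals over the 8 tumors were 382 counts for Odam, 206 for Prr27, 634 for Gm42794 and 143 for Gm7337, against 2147072 for Csn3, 41301 for Csn1s1 and 349 for Csn1s2b. They were small beside Csn3 and Csn1s1 and of the same order as Csn1s2b.

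Of the whey proteins, Lalba was lower in the homozygous KO. It encodes alpha-lactalbumin, which binds galactosyltransferase and turns it into lactose synthase. Lalba was at 40.3 and 31.1 CPM in tumors 1 and 6 of G174, against 211 and 252 CPM in tumors 6 and 9 of G184. The tumors of each mouse were close to each other and the mice were far apart, and Lalba fell by 2.70 ± 0.59 on the log2 scale (SE, edgeR adjusted p = 0.0303), a level 6.49-fold lower in G174. It was at 138 and 227 CPM in tumors 3 and 6 of G164, against 63.3 and 243 CPM in tumors 6 and 8 of G144. These mice overlapped, with a log2 fold change of 0.25 ± 0.55 (SE, edgeR adjusted p = 0.813). The difference of the 2 changes was -2.95 ± 0.80 (SE, edgeR adjusted p = 0.0371). The homozygous call held in DESeq2 and in the fit of only the 4 homozygous tumors. It was lost when any 1 of those 4 was left out (log2 fold change -2.90 to -2.50), where fewer of all genes passed too. The call of the difference held without either tumor of G144 and was lost without any 1 of the other 6 tumors. In those fits also fewer of all genes passed. Without tumor 8 of G144, Lalba was also higher in G184 than in G144 (1.87, edgeR adjusted p = 0.047), against 0.60 ± 0.55 (SE, edgeR adjusted p = 0.498) with all tumors. Of the 8 luminal markers, Epcam was higher and Kit lower in the same comparison. Kit was at 286 and 379 CPM in G174, against 673 and 962 CPM in G184 (-1.30, edgeR adjusted p = 0.0177). Epcam rose by 0.43 (edgeR adjusted p = 0.0455). The markers that did not pass ran from -1.08 for Krt19 (edgeR adjusted p = 0.15) to 0.54 for Cdh1 (0.129). Krt8 was at -0.22 and Krt18 at -0.12, and of those that did not pass all but Cdh1 were negative. The part of luminal cells in the Lalba values was not tested.

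Wap, the whey acidic protein, was high in different tumors. It was at 16.6 and 19.5 CPM in tumors 3 and 6 of G164, against 41.6 and 24.5 CPM in tumors 6 and 8 of G144 (log2 fold change -0.87 ± 0.89 (SE), edgeR adjusted p = 0.579). It was at 11.5 and 58.8 CPM in tumors 1 and 6 of G174, against 14.2 and 2.6 CPM in tumors 6 and 9 of G184 (2.06 ± 0.92 (SE), edgeR adjusted p = 0.174). Tumor 6 of G174 had the highest level and tumor 9 of G184 the lowest of all 8. The difference of the changes was 2.93 ± 1.27 (SE, edgeR adjusted p = 0.132), and it rested on single tumors. It was 4.68 with an adjusted p of 0.0474 without tumor 6 of G184, 2.16 (0.243) without tumor 9 of G184 and 1.36 (0.401) without tumor 6 of G174. The homozygous estimate was 0.47 without tumor 6 of G174 and 3.79 without tumor 6 of G184.

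Glycam1 encodes a mucin-like glycoprotein of milk, and high endothelial venules of lymph nodes make it as well. It was at 1.56 and 26.1 CPM in tumors 3 and 6 of G164, against 0.305 and 0.412 CPM in tumors 6 and 8 of G144. It was at 3.15 and 0.858 CPM in tumors 1 and 6 of G174, against 0.48 and 0.404 CPM in tumors 6 and 9 of G184. In both pairs the KO tumors lay above the control tumors. The log2 fold change was 5.27 ± 1.33 (SE, edgeR adjusted p = 0.073) in the heterozygous comparison, where DESeq2 gave an adjusted p of 0.00122, and 2.18 ± 1.20 (SE, edgeR adjusted p = 0.259) in the homozygous one. Without tumor 6 of G164 the heterozygous estimate was 2.12, and without tumor 3 it was 6.17 with an adjusted p of 0.0413. The homozygous estimate was 0.95 without tumor 1 of G174 and 2.85 without tumor 6 of G174. Between the pairs, the changes differed by -3.09 (edgeR adjusted p = 0.217), -3.97 (0.0426) without tumor 3 of G164 and by 0.05 (0.98) without tumor 6 of G164.

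Tumor 6 of G164, with the highest Glycam1, also held the most RNA of lymphoid markers. The 9 markers of lymph nodes summed to 10.1 and 43.8 CPM in G164, 0.899 and 1.49 CPM in G144, 0.503 and 0.768 CPM in G174, and 5.94 and 4.49 CPM in G184. In tumor 6 of G164, the B cell gene Ms4a1 was at 9.59 CPM and Cr2, a gene of B cells and follicular dendritic cells, was at 14.3 CPM. In the other 7 tumors Ms4a1 was at 0.0359 to 0.877 CPM. Fcer2a and Cd79a, at 3.67 and 3.74 CPM in tumor 6 of G164, peaked there too. The pattern of Glycam1 was not shared by all markers of the list. Ccl21a was at 4.0 and 6.77 CPM and Cxcl13 at 3.98 and 4.72 CPM in tumors 3 and 6 of G164. Fut7 was highest in tumor 9 of G184 (0.668 CPM, 43 counts) and Madcam1 in tumor 1 of G174 (0.107 CPM, 7 counts). Madcam1 did not pass the filter on low counts, so where it peaks is uncertain. Chst4, a sulfotransferase of high endothelial venules, had 24 counts in tumor 6 of G164, 1 count in each tumor of G144, and 0 counts in the remaining 5 tumors, which allows up to 3 counts in each. In G174 the lymphoid sum was the lowest of the 4 mice while Glycam1 was above that of both controls. The part of lymphoid cells in the Glycam1 values was not tested.

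**Figure D3:**
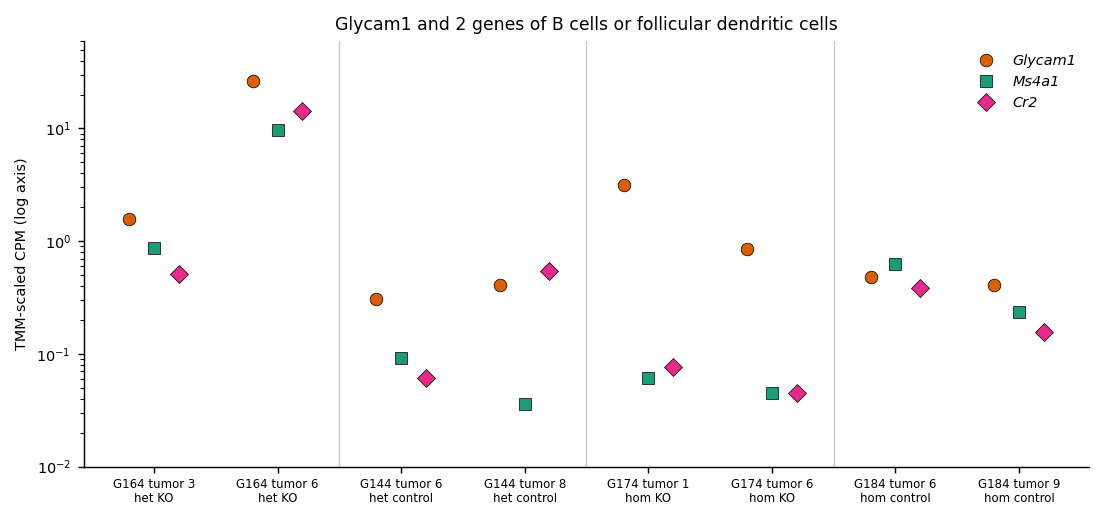
TMM-scaled CPM (log axis) of Glycam1 and of the lymphoid genes Ms4a1 and Cr2 in the 8 tumors. All 3 genes peak in tumor 6 of G164 (26.1 CPM for Glycam1). Tumor 1 of G174 has Glycam1 at 3.15 CPM with the other 2 genes below 0.1 CPM. The lymph node markers Fut7 and Madcam1, not shown, were highest in other tumors, at only 43 and 7 counts.

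Btn1a1 and Xdh, whose proteins bind each other in the membrane of the milk fat globule, behaved differently. Btn1a1, which encodes butyrophilin, was at 240.3 and 95.1 CPM in tumors 3 and 6 of G164, against 33.3 and 32.9 CPM in tumors 6 and 8 of G144. The mice did not overlap, and the log2 fold change was 2.34 ± 0.64 (SE, edgeR adjusted p = 0.0864). It was at 19.9 and 73.1 CPM in tumors 1 and 6 of G174, against 58.8 and 79.3 CPM in tumors 6 and 9 of G184 (-0.57 ± 0.61 (SE), edgeR adjusted p = 0.561). The heterozygous value passed the threshold with DESeq2 (adjusted p = 0.0171), in the fit of only these 4 tumors (0.045) and without either tumor of G174 (0.042 and 0.0418). The difference of the changes, -2.91 ± 0.88 (SE), had an edgeR adjusted p of 0.0514, and passed with library size alone as the scale (0.0491), with either sequencing run alone (0.0472 and 0.0492) and with DESeq2 (0.0237). Leaving out a tumor moved both. The heterozygous value was 1.51 (edgeR adjusted p = 0.326) without tumor 3 of G164 and 2.86 (0.161) without tumor 6. The difference was -4.09 (edgeR adjusted p = 0.0141) without tumor 6 of G174, -2.25 (0.059) without tumor 1 of G174 and -2.06 (0.148) without tumor 3 of G164.

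Xdh, the xanthine oxidoreductase gene, which is expressed in many tissues besides the mammary gland, was steady. It was at 615 and 518 CPM in G164, against 563 and 494 CPM in G144, and at 732 and 659.5 CPM in G174, against 662 and 565 CPM in G184. The highest tumor was 1.48-fold above the lowest. Its log2 fold changes were 0.10 ± 0.14, 0.18 ± 0.14 and 0.22 ± 0.14 (SE) in the heterozygous, homozygous and control comparisons (edgeR adjusted p = 0.702, 0.422 and 0.341). A processed pseudogene within Xdh on the same strand, CT025731.2, took 1947 counts beside the 304233 of Xdh.

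Genes whose tumors did not overlap between mice were counted next, beside the same count over all genes. In G164 against G144, 5 members were higher in both tumors, as were 31.3% of all genes, and 3 were lower, as were 28.8% of all genes. In G174 against G184, 3 members were higher and 2 lower without overlap, beside 29.9% of all genes in each direction. In G184 against G144, 2 were higher and 2 lower, beside 31.1% and 30.3% of all genes.

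Tumors of a single mouse often differed as much as mice did. Over 10 genes and 4 mice, 14 of the 40 pairs of tumors differed by more than 2-fold. With 0.5 CPM added to each value, 3 of the 10 genes passed 2-fold in G164, 2 in G144, 5 in G174 and 3 in G184, where 1.97%, 1.88%, 3.88% and 2.54% of all genes tested did. The members were not drawn at random and many genes are expressed at other levels, so these shares are set side by side without a test. In G184 tumor 9 was below tumor 6 for Csn2 (ratio 0.0542, exact binomial 95% interval 0.0306 to 0.0894), Csn1s1 (0.0823, 0.0741 to 0.0912) and Wap (0.182, 0.154 to 0.215). Lalba had a ratio of 1.19 (1.17 to 1.22) there, on the other side of 1. In G174 tumor 6 was below tumor 1 for Csn2 (0.165, 0.146 to 0.186), Csn1s2a (0.186, 0.162 to 0.211) and Glycam1 (0.272, 0.199 to 0.366). It was above tumor 1 for Wap (5.1, 4.72 to 5.52) and Btn1a1 (3.68, 3.46 to 3.92).

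In G164, where 8 of the 10 intervals excluded 1 as in G184, tumor 6 over tumor 3 had a ratio of 16.7 (13.4 to 21.1) for Glycam1, 0.46 (0.437 to 0.485) for Csn2 and 0.396 (0.384 to 0.408) for Btn1a1. In G144, tumor 8 over tumor 6 had a ratio of 3.84 (3.71 to 3.98) for Lalba and 2.44 (1.95 to 3.07) for Csn2. The order of the tumors therefore depended on the gene, and in no mouse was 1 tumor higher for all 10 genes. These intervals cover counting error only. The runs repeated the values closely: in the 62 pairs of gene and tumor with at least 100 counts, the CPM of the 2 runs differed at most 1.2-fold.

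**Figure D4:**
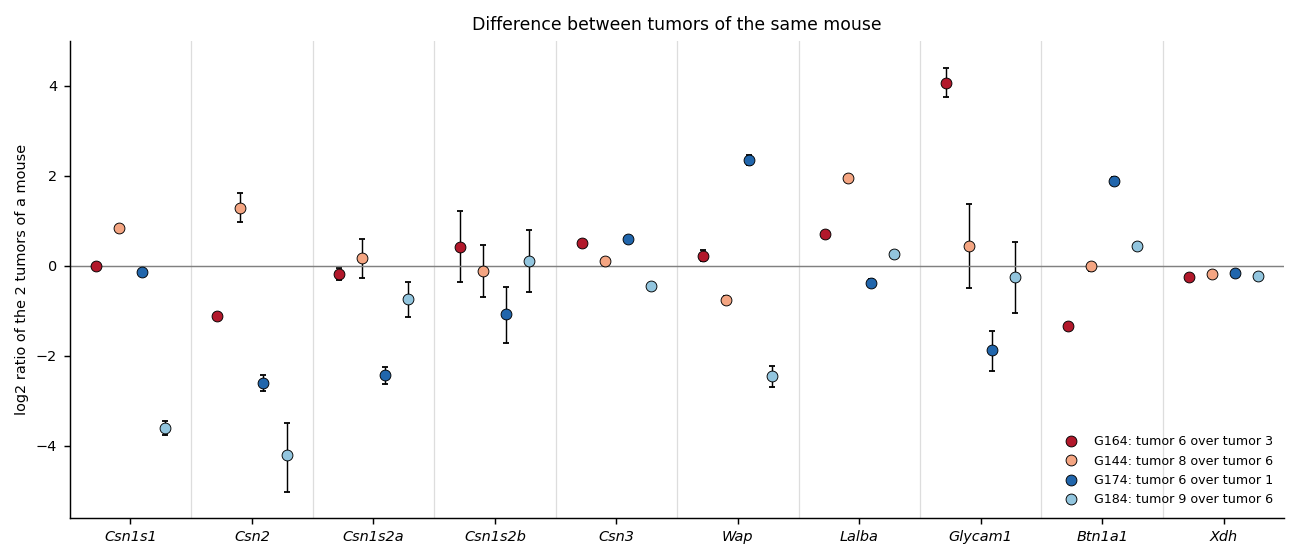
Log2 ratio of the 2 tumors of each mouse for the 10 genes, with exact binomial 95% intervals of the ratio of counts, which cover counting error only. The ratios of Xdh stay between -0.25 and -0.15, and those of Glycam1 (4.06 in G164) and Csn2 (-4.20 in G184) are the farthest from 0.

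Markers of other cell types also differed between these tumors. The 5 basal markers, all detected in every tumor, summed to 545 and 506 CPM in G164, 284 and 258 CPM in G144, 109 and 253 CPM in G174, and 221 and 678 CPM in G184. Tumor 9 of G184, lowest for Csn1s1, Csn2 and Wap and highest for Lalba, had the highest basal sum. The tumors of G164, next in basal sum, were the highest for Csn1s1 and Csn2, and tumor 1 of G174, highest for Csn1s2a and lowest for Btn1a1, had the lowest. The 7 adipocyte markers summed to 44.2 and 151 CPM in G164, 26.1 and 37.4 CPM in G144, 26.8 and 10.6 CPM in G174, and 68.4 and 40.2 CPM in G184. The 6 salivary gland markers summed to 9.26 to 60.5 CPM, and the 5 macrophage markers to 121 to 294 CPM. By the edgeR test, 0 of the luminal, basal and salivary markers passed in G164 against G144, where Lep was higher among the adipocyte markers, Ccl21a, Cxcl13 and Ms4a1 among the lymph node markers and Adgre1 among the macrophage markers. In G174 against G184, Epcam was higher, Kit, Lep, Cxcl13, Csf1r and Adgre1 were lower, and 0 basal, salivary or muscle markers passed. Between the controls, Kit, Cxcl13, Csf1r, Adgre1, Itgam and Amy1 were higher in G184 than in G144, and no marker of these lists was lower. The log2 fold changes there were 1.40 for Kit, 2.79 for Cxcl13, 1.07 for Csf1r and 1.12 for Adgre1. The shares of all genes called in these comparisons are given above. The part of these cells in the milk gene values was not tested.

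Calls among genes of the prolactin pathway are given beside the share of all genes called. Of 13 pathway genes, 0 passed in G164 against G144 in the edgeR fit and in every alternative tried. In the edgeR fit 2.72% of all genes were called higher there and 1.29% lower. The receptor gene Prlr had log2 fold changes of 0.08 and -0.35, Stat5a 0.17 and 0.16, Stat5b 0.05 and -0.11 and the alveolar factor Elf5 0.02 and -0.21 in the heterozygous and homozygous comparisons, with edgeR adjusted p of 0.323 or more. Nfib, the most abundant gene of the list, was at 1214 and 1113 CPM in G164, against 1105 and 1213 CPM in G144. In G174 against G184, 0 passed as higher and 2 as lower, beside 5.44% and 7.7% of all genes. The kinase gene Jak2 fell by 0.69 ± 0.11 on the log2 scale (SE, edgeR adjusted p = 0.0117) and the JAK inhibitor gene Socs1 fell by 2.04 ± 0.22 (SE, adjusted p = 0.0045). Both had higher levels in G184 than in G144, by 0.47 and 2.19 on the log2 scale (edgeR adjusted p = 0.0337 and 0.00361). Thus 2 of 13 genes passed as higher there also, beside 6.17% of all genes. Socs1 was at 2.41 and 1.85 CPM in G174, against 9.48 and 8.0 CPM in G184. The difference of the changes was past the threshold for 3 of 13 genes, all lower, beside the 13.1% of all genes given above. They were Socs1, Jak2 and the luminal factor Gata3 (-0.71 ± 0.19 (SE), edgeR adjusted p = 0.037).

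Other milk fat genes were called in both directions. Of 21 genes, 0 passed in G164 against G144, where the most abundant, Srebf1, had a log2 fold change of -0.25 (edgeR adjusted p = 0.604). Other settings called up to 2 of the 21 higher and 3 lower, with 3.39% to 12.7% of all genes called under those settings. In G174 against G184, 1 gene was higher and 3 were lower, beside 5.44% and 7.7% of all genes. The droplet coat gene Plin2 was the higher one (0.63, edgeR adjusted p = 0.0184). The desaturase Scd1 was at 317 and 194 CPM in G174, against 1451 and 2258 CPM in G184, and it fell by 2.86 ± 0.46 (SE, edgeR adjusted p = 0.0131). The fatty acid translocase Cd36 fell by 2.05 (edgeR adjusted p = 0.0183) and the lipoprotein lipase Lpl by 1.79 (adjusted p = 0.0216). These 3 genes are also expressed by adipocytes, whose marker sums are given above. The adipocyte hormone Lep fell by 3.63 in the same comparison (edgeR adjusted p = 0.00613), with 7 counts in each tumor of G174. It was the only adipocyte marker that passed there. The others ran from -0.37 for Fabp4 to -2.73 for Plin1. Between the controls, Cd36 and Lpl were higher in G184 (1.76 and 1.37) and Thrsp, Gpat4 and Lpin1 were lower, with Thrsp at -1.67 (edgeR adjusted p = 0.0314). Of all genes, 6.17% were higher there and 6.4% lower. The difference of the changes was called higher for 4 genes, with Cidea at 3.53 (edgeR adjusted p = 0.0354), and lower for Cd36, Lpl and Scd1. By that contrast 12% of all genes were called higher and 13.1% lower.

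Among the 7 genes of lactose synthesis and transport reported here, 1 passed as lower in G174 against G184, beside 7.7% of all genes. It was Slc34a2, the phosphate transporter, which was at 11.4 and 13.2 CPM in G174, against 55.8 and 46.7 CPM in G184. It fell by 2.06 ± 0.23 on the log2 scale (SE, edgeR adjusted p = 0.00486), and its change differed from the heterozygous one (-2.56, adjusted p = 0.00341). The galactosyltransferase gene B4galt1, whose product is the partner of alpha-lactalbumin, had a log2 fold change of -0.16 ± 0.15 (SE, edgeR adjusted p = 0.502) in G174 against G184 and of 0.12 ± 0.15 (SE, edgeR adjusted p = 0.635) in G164 against G144. Among 8 other milk protein genes, transferrin (Trf) was at 15077 and 13329.7 CPM in G174, against 6463 and 6923 CPM in G184, and rose by 1.09 ± 0.22 (SE, edgeR adjusted p = 0.0249). Osteopontin (Spp1) fell by 2.20 ± 0.47 (SE, edgeR adjusted p = 0.0288). Both are also made by cells that secrete no milk. Trf was lower in G184 than in G144 (-0.88, edgeR adjusted p = 0.0446).

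The mean of the standardized log2 levels of the 10 genes was highest in tumor 6 of G164 (0.55) and lowest in tumor 9 of G184 (-0.71). Against the mean of the other 9 genes, Pearson r over the 8 tumors was 0.84 for Csn2, 0.78 for Csn1s1, 0.6 for Csn1s2a and 0.56 for Glycam1, 0.14 for Wap and 0.02 for Btn1a1, and -0.24 to -0.34 for Lalba, Xdh, Csn1s2b and Csn3. Among 15742 other genes with a mean of at least 1 CPM, the 10 most like the mean of all 10 genes were Vegfb (0.98), Thy1 (0.96), Muc4 (0.95), Bcat1 (0.95), Igfbp6 (0.94), Mfap5 (0.94), Hhipl1 (0.93), Unc5a (0.93), Lgi2 (0.92) and Lox (0.92). The 8 tumors come from 4 mice and the highest of so many values is high by selection, so these figures are descriptions. Vegfb, at the top, ranged only over 6.98 to 8.74 CPM, and the epithelial mucin Muc4 over 2.72 to 23.3 CPM.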

How the data were processed

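RNA of 8 tumors from 4 mice, 2 each of a heterozygous KO (G164), its control (G144), a homozygous KO (G174) and its control (G184), was sequenced as stranded, paired-end total RNA libraries after ribosomal depletion. Per the labels, the authors used bcl2fastq and aligned reads with STAR to GRCm38 (mm10); the sources used here give no versions. They deposited raw counts per gene by tumor, run (2) and lane (4 a run), and a table of unstranded counts summed per mouse. Reverse-strand counts were summed here over lanes and runs, and no lane or run was taken as a replicate. The forward strand held 4.76% to 6.8% of stranded counts, and 48.0% to 52.3% of reads fell in a gene. Reads in no gene were left out. Gene totals were 50346075 to 69264893 per tumor.

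Low counts were removed with filterByExpr. After TMM scaling, edgeR 4.0.16 (R 4.3.3) fitted its quasi-likelihood model to the 8 tumors with the mouse as group. Benjamini-Hochberg adjustment ran over 22187 genes, and the threshold was 0.05. CPM use TMM-scaled library sizes. Alternatives were DESeq2 1.42.0 and its size factors, library size alone, scaling without the 10 genes, no filter, unstranded counts, either run, only the mice compared, and each tumor left out. The union of exons as length was added after seeing the data. The fit was tested on simulated data. The 10 genes, the lists of related genes and of cell type markers, and the tests were chosen with earlier results of these data known. A gene each of the lactose and lymph node lists is not reported here and was left out of them. Named from each list are up to 3 genes past the threshold with the largest change in a comparison, or the most abundant where none passed, and the 10 genes most like the mean of the members over the tumors. Prlr, Stat5a, Stat5b, Elf5, B4galt1, Plin2, Gpat4, Lpin1, Cr2 and Chst4 were named after their values were seen. So were Fcer2a, Cd79a, Fut7, Madcam1, Krt8, Krt18, Krt19, Cdh1, Pgr and Fabp4. Ratios between tumors of a mouse carry exact binomial intervals (scipy 1.17.1), which cover counting error only. Gene places and lengths are from GENCODE M21, and promoters are from RefSeq.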

Additional observations from a re-analysis of the deposited data

Results flagged for a closer look

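Lalba changed differently in the homozygous and the heterozygous pair by a test of the difference itself, at -2.95 ± 0.80 on the log2 scale (SE, edgeR adjusted p = 0.0371). It was at 40.3 and 31.1 CPM in tumors of G174, against 211 and 252 CPM in tumors of G184, and at 138 and 227 CPM in tumors of G164, against 63.3 and 243 CPM in tumors of G144. The tumors of G144 differed 3.84-fold from each other. Each mouse had 2 tumors, too few to say whether a single tumor lies outside its group. The test of the difference also sets the younger mice, G174 and G144, against the older mice, G164 and G184. Age and Abi1 dose cannot be told apart in it.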

How the results depend on the processing

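The counts of called genes depended on the setting. Of the 10 genes, 0 were called in G164 against G144 in the edgeR fit, 4 with no filter and 4 with DESeq2 (the same 4 genes), 3 with only the mice compared, and 0 to 2 when a tumor was left out. In G174 against G184 it was 2, 6 with no filter, 1 with only the mice compared (Lalba) and 0 to 1 when a tumor was left out. For the difference of the changes it was 1, 4 with no filter, 2 with library size alone, unstranded counts, either run alone or DESeq2, and 0 to 2 when a tumor was left out. Between the controls it was 0, 1 with no filter, 1 with only the mice compared, and 0 to 1 when a tumor was left out. Over these 4 comparisons the calls numbered 3, 15 with no filter, 9 with DESeq2, and 0 to 5 when a tumor was left out. DESeq2 size factors and scaling without the 10 genes left each count as it was. The share of all genes called moved too. It was 4.01% in G164 against G144, 6.59% with no filter, 12.7% with DESeq2 and 6.63% with only the mice compared, and 13.1% in G174 against G184, 11.5% with no filter, 20.6% with DESeq2 and 4.67% with only the mice compared. For the difference of the changes it was 25.1%, 16.5% with no filter, 29.3% with DESeq2 and 23.1% with library size alone. Between the controls it was 12.6%, 10.5% with no filter, 20.2% with DESeq2 and 7.3% with only the mice compared. In each comparison the share fell when a tumor of the mice compared was left out. The cause was not tested. Csn3 ranked first in 8 tumors on unstranded counts too, and 13 to 14 pairs of tumors differed over 2-fold in either run or by library size.

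Some directions turned when 1 tumor was left out. The log2 fold change then ran, in the heterozygous comparison -0.43 to 1.53 for Lalba and -0.04 to 0.22 for Xdh; in the homozygous comparison -0.20 to 3.43 for Csn1s1, -0.12 to 0.98 for Csn1s2b and -1.77 to 0.08 for Btn1a1; in the difference comparison -0.71 to 2.95 for Csn1s1, -2.18 to 0.28 for Csn1s2a, -3.20 to 1.94 for Csn2, -4.31 to 0.05 for Glycam1 and -0.05 to 0.24 for Xdh; in the control comparison -0.24 to 0.54 for Csn1s2a, -3.62 to 0.60 for Csn2, -0.38 to 0.11 for Csn3 and -0.08 to 1.87 for Lalba. Apart from that, Csn1s2a between the controls was -0.0038 on unstranded counts, and the difference for Xdh was -0.02 by library size. Of the values of single genes, 321 of 350 under other settings and 271 of 320 with a tumor left out kept direction and side of the threshold. No paired analysis was possible because the mice compared share at most 1 tumor number, which names a tumor within a mouse. With 2 tumors from 1 mouse a genotype, counts were lowest, at 16 to 82 a tumor, for Csn1s2b, for Csn2 in tumor 9 of G184 and for Glycam1 in all tumors but tumor 6 of G164 and tumor 1 of G174, and depth limits these values.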
